A study of Homo sapiens with 183 samples.

Results

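The heat shock proteins described here are the 9 names Hsp70, Hsp40, HSP90AA1, HSP90AB1, HSPD1, HSPE1, HSPH1, HSPB1 and HSF1, chosen by name and not by measured values, out of 19875 gene names in each table of expression values. Of these, 5 have an entry of exactly that name. The entries Hsp60 and Hsp10 were used for HSPD1 and HSPE1, the only genes for which RefSeq lists those synonyms, and the entry Hsp110 for HSPH1, a match that rests on the family name of the protein. HSPB1 has no entry under its symbol and was not analysed here, so 8 of the 9 have values, and they are called below by their entries: Hsp70, Hsp40, HSP90AA1, HSP90AB1, Hsp60, Hsp10, Hsp110 and HSF1. All 8 passed the filter on low values in each of 45 comparisons. Hsp70 is a RefSeq synonym of HSPA1A and HSPA4, and Hsp40 of DNAJB1 and its pseudogene DNAJB1P1. Which HSPA and DNAJ genes those entries combine is not given in the sources used here, so both are read as family values, uncertain in their gene content.

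RNA was measured in 183 libraries from 9 established human cancer lines. AsPC-1, SUIT-2, CFPAC-1, BxPC-3 and T3M-4 come from pancreatic cancer, T84 from colorectal cancer, A-375 from melanoma, H1048 from small cell lung cancer and RH30 from rhabdomyosarcoma. In the knockout experiments the pancreatic lines carried Cas9 stably and were infected with guides against KLF5, RUVBL1, RUVBL2, CDK1, RPA3, CHD4 or SERPINB5, or with control guides (sgRosa), and RNA was taken on day 5. Experiments of 1 line are numbered as in the labels, and each has its own sgRosa libraries: AsPC-1 has experiments 1, 2 and 3 and a separate CHD4 experiment, BxPC-3 and T3M-4 have experiments 1 and 2, and SUIT-2 and CFPAC-1 have 1 each. In the drug experiments cells received CB-6644, an allosteric inhibitor of the RUVBL1/2 ATPase, or its solvent DMSO for 24 h. AsPC-1 and T3M-4 in that experiment also carried a lentiviral empty vector (EV), RUVBL1 A62T or RUVBL2 dF109, selected with G418, with 3 CB-6644 libraries and 1 DMSO library for each vector, so the 3 DMSO libraries of a line served as 1 control group for all its vectors. T84, A-375, H1048 and RH30 had 4 CB-6644 and 4 DMSO libraries each. The methods name drug selection but no picking of single clones, and cells with a variant kept their own RUVBL1 and RUVBL2 genes. The study describes a pair of independent guides for KLF5, RUVBL1, RUVBL2, SERPINB5 and the control in its knockout RNA-seq and calls several of these libraries biological replicates. The labels do not say which library carried which guide, so a group can hold both, and its spread includes that between guides. For the other groups, neither labels nor methods say whether libraries came from separate cultures, and p-values there measure a spread that may be technical. In bulk RNA, fewer cells of a kind and less RNA per cell cannot be told apart.

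Heat shock proteins are chaperones that bind unfolded or partly folded proteins. Proteins of the Hsp70 family hold short hydrophobic stretches of a client and release them in a cycle driven by ATP, J-domain proteins of the Hsp40 family deliver clients and stimulate the ATPase of Hsp70, and Hsp110 acts as a nucleotide exchange factor for Hsp70 and as a holdase. HSP90AA1 and HSP90AB1 encode the stress-inducible and the constitutive cytosolic HSP90, which finish the folding of kinases, receptors and multiprotein complexes with the help of co-chaperones. Hsp60 and its lid Hsp10 form the folding chamber of the mitochondrial matrix. HSF1 encodes the transcription factor that induces these genes under proteotoxic stress by binding heat shock elements. RUVBL1 and RUVBL2 are AAA+ ATPases that, in the R2TP complex, work with HSP90 in the assembly of large complexes, and KLF5 is a transcription factor of epithelial cells.

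The depth of the libraries is unknown because the values are normalised, and 11292 to 14024 genes reached 1 TPM (a share of all transcripts, corrected for transcript length) in a library. RUVBL1 and RUVBL2 transcripts stood at 27.1% to 44.8% of sgRosa in their own knockouts, SERPINB5 at 39.1%, RPA3 at 37.1% to 82.4% and CDK1 at 35.8% to 93.1%. KLF5 stood at 75.3% to 170.1% and CHD4 at 124% of sgRosa, so the targets' own transcript levels do not check these knockouts. SERPINB5, which the study uses as a reporter of KLF5, averaged lower with sgKLF5 than in sgRosa in each experiment. Its means were 49.2 against 284.7 TPM in T3M-4 experiment 1 and 194.3 against 267.1 TPM in BxPC-3 experiment 2. SERPINB5 was also lower with other guides, such as sgCHD4 (75.6 against 130.5 TPM). In CFPAC-1, CDK1 averaged 200.4 TPM in the libraries labelled sgCDK1, 86.5 TPM in those labelled sgRPA3 and 215 TPM in sgRosa, against the labels, and every direction given below for these libraries rests on labels that this level contradicts. Markers were present in T84 (CDX1, CDX2, VIL1, CDH17), RH30 (MYOD1, MYOG, DES, MYF5) and H1048 (POU2F3, AVIL and GFI1B, with TRPM5 at a median of 0.0632 TPM). A-375 had SOX10 and MITF but PMEL and MLANA at medians of 0.884 and 1.23 TPM. Some were not particular to these lines. In AsPC-1 the median of CDH17 was 860 TPM, against 338 TPM in T84, and that of VIL1 152 against 256 TPM. MITF had a median of 23.3 TPM in CFPAC-1, against 17.1 TPM in A-375. Among the pancreatic lines, KRT5 and TP63 were high in BxPC-3 and T3M-4, and of 4 markers of the classical subtype HNF4A was higher in AsPC-1, SUIT-2 and CFPAC-1. The other 3 did not follow that division: GATA6 was highest in BxPC-3 (median 38.3 TPM, against 27 TPM in AsPC-1), TFF1 lower in AsPC-1 (0.739 TPM) than in BxPC-3 (13.5 TPM), and CEACAM6 higher in T3M-4 (919 TPM) than in AsPC-1 (602 TPM). The libraries farthest from their groups were T3M-4 experiment 1 sgKLF5 replicate 2, SUIT-2 sgRosa replicate 1 and SUIT-2 sgKLF5 replicate 4.

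The promoters of 6 members were read from RefSeq (GRCh38.p14) in windows from 250 bases before to 50 bases after each start site, 10 windows in all. They are HSPD1, HSPE1, HSP90AB1, HSPB1, HSPH1 and HSP90AA1. The promoter of HSF1 was left out, and Hsp70 and Hsp40 were matched to no single gene. The counts of member windows below therefore do not cover these entries. A heat shock element is built of inverted nGAAn units, and its minimal 3-unit form, GAA, TTC and GAA or TTC, GAA and TTC with 2 free bases (NN) between units, searched on both strands, was found in 3 of the 10 windows and in 0.49% (172) of 35116 windows of all genes. The 2-unit form GAANNTTC or TTCNNGAA, which every 3-unit match contains, was found in 4 of the 10 and in 13.5% (4737) of all windows. The 3 windows with 3 units are shown because they carry the motif to which HSF1 is known to bind. Capitals mark the matched units, and a match is a description of letters and not a measured site.
HSPD1, chr2:197499791-197500090, minus strand: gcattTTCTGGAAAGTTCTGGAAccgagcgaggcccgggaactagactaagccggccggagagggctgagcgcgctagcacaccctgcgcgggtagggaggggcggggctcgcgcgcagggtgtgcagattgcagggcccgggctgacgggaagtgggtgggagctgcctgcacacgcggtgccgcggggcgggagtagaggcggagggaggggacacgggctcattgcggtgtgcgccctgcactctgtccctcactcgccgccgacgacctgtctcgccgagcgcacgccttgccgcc
HSP90AB1, chr6:44247693-44247992, plus strand: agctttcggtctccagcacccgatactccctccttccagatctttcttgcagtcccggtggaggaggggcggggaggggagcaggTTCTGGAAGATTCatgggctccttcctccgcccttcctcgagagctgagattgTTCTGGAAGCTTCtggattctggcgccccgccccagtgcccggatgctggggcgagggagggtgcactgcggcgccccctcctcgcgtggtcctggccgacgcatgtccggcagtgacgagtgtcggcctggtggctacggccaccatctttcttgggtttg
HSP90AA1, chr14:102086995-102087294, minus strand: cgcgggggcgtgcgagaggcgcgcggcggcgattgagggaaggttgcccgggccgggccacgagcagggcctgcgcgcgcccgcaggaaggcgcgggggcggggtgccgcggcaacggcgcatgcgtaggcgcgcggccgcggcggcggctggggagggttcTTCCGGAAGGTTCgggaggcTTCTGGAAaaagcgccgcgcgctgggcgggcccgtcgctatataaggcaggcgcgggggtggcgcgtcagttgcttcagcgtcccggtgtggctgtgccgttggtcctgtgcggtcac
The HSPD1 window holds 1 run of 18 bases, TTCTGGAAAGTTCTGGAA, between 245 and 228 bases before the start. In the HSP90AB1 window TTCTGGAAGATTC lies 165 to 153 and TTCTGGAAGCTTC 112 to 100 bases before the start. HSP90AA1 has TTCCGGAAGGTTC at 88 to 76 bases and a shorter TTCTGGAA at 68 to 61 bases before its start. The outermost start of HSPD1 lies 105 bases from that of HSPE1 and is read in the opposite direction, so the 2 mitochondrial genes share that promoter region. The HSPD1 window shown belongs to another start of the gene. Its run of 18 bases (chr2:197500068-197500085) lies outside the HSPE1 window (chr2:197500129-197500428). The HSPB1 window has 1 match of the 2-unit form, and the windows of HSPE1 and HSPH1 and the other windows of HSPD1, HSP90AB1 and HSP90AA1 have no match of these letters.

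In the 56 control libraries (sgRosa or DMSO) the 8 entries together took 0.508% to 1.35% of all TPM, with a median of 1.03%. Hsp70 was the highest entry in every line, with medians from 3259 TPM in CFPAC-1 to 4969 TPM in T3M-4, and in the order of medians the library ranges of neighbouring lines overlapped except between RH30 and T84. Hsp40 varied least, with medians from 1517 TPM in SUIT-2 to 2144 TPM in H1048. The stress-inducible HSP90AA1 had a median of 674 TPM in SUIT-2 (494 to 817), 825 TPM in AsPC-1 (626 to 1049), 2001 TPM in T84 (1924 to 2036) and 2386 TPM in H1048 (2271 to 2565). SUIT-2 and AsPC-1 overlapped in these ranges, as A-375 and H1048 did, and T84 lay clear of both pairs. The constitutive HSP90AB1 ran from a median of 835 TPM in SUIT-2 to 2267 TPM in T3M-4.

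The mitochondrial chaperonin was highest in T84, where Hsp60 had a median of 1603 TPM (1517 to 1707) and Hsp10 of 983 TPM (946 to 989). Both ranges lay above those of the other 8 lines, whose lowest medians were in CFPAC-1, at 615 TPM for Hsp60 and 258 TPM for Hsp10. Hsp110, the Hsp70 exchange factor, spread most between lines, from a median of 47.3 TPM in CFPAC-1 (45.2 to 52.9) to 358 TPM in A-375 (346 to 376). HSF1, their regulator, was the lowest entry outside CFPAC-1 and SUIT-2, with medians between 43.6 TPM in RH30 and 89.4 TPM in AsPC-1. Levels also differed between experiments of 1 line. The sgRosa mean of HSP90AA1 in BxPC-3 was 1743 TPM in 1 experiment and 932 TPM in the other, so every change below was taken against controls of the same experiment, and lines measured in different tables were not tested against each other.

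**Figure D1:**
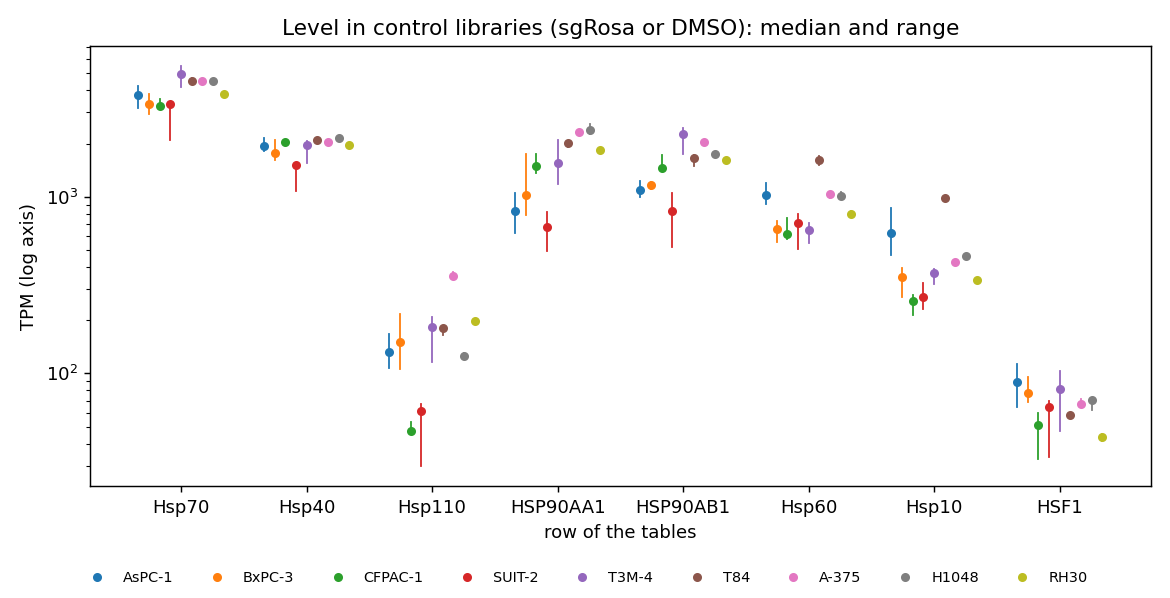
Median (points) and range (lines) of TPM of each entry in the control libraries of the 9 lines, on a log axis. Hsp70 is the highest entry in every line, Hsp110 spreads from 47.3 TPM in CFPAC-1 to 358 TPM in A-375, and Hsp60 and Hsp10 are highest in T84.

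Inhibition of the RUVBL1/2 ATPase with CB-6644 was compared with DMSO in the 6 settings without a variant, which asks how the chaperone transcripts stood when RUVBL1/2 was blocked for 24 h. Hsp70, HSP90AB1 and Hsp60 fell in all 6 lines, while Hsp40 rose in 5 and Hsp110 in 4. Of 48 tests (8 entries in 6 lines), 12 passed as higher and 25 as lower, at adjusted p under 0.05 by limma, against 44.7% of all genes tested as higher and 22.9% as lower. The median change of the members was -0.17 on the log2 scale and that of all genes 0.14, so the members' median lay below that of all genes. By line, 8 of 8 passed in A-375 (81.1% of all genes tested), 8 in H1048 (77.9%), 7 in RH30 (77.7%), 6 in AsPC-1 with EV (64.4%), 5 in T84 (71.4%) and 3 in T3M-4 with EV (34.3%).

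Hsp70, the client-binding chaperone, changed most in A-375. Its DMSO libraries held 4502, 4611, 4359 and 4584 TPM and its CB-6644 libraries 2673, 2614, 2629 and 2645 TPM, a log2 change of -0.77 ± 0.022 (SE; adjusted p = 1.06e-10). The T84 libraries, which changed least, held 4391, 4384, 4589 and 4669 TPM in DMSO and 3730.04, 3707, 3556 and 3721 TPM in CB-6644, a change of -0.29 ± 0.033 (adjusted p = 1.05e-06). In both lines, and in the other 4, every CB-6644 library lay below every DMSO library. The change in RH30 was -0.69 ± 0.019, in T3M-4 with EV -0.69 ± 0.078, in H1048 -0.60 ± 0.025 and in AsPC-1 with EV -0.55 ± 0.051.

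HSP90AB1, the constitutive HSP90, followed the same order of lines at its ends. In A-375 it held 2049, 2014, 2002 and 2046 TPM in DMSO and 1184, 1169, 1174 and 1179.9 TPM in CB-6644, and fell by 0.78. In T84 it held 1495, 1669, 1656 and 1725 TPM in DMSO and 1444, 1418, 1425 and 1419 TPM in CB-6644, and fell by 0.20. Every CB-6644 library again lay below every DMSO library of its line, and the falls in H1048, RH30, AsPC-1 and T3M-4 were 0.60, 0.60, 0.46 and 0.42. The inducible HSP90AA1 fell by 0.55 in A-375, 0.22 in H1048 and 0.19 in RH30. Its values were -0.15 in AsPC-1, -0.088 in T3M-4 and -0.043 in T84, which did not pass. In T3M-4 the 3 EV libraries in CB-6644 held 1419, 2099.7 and 2525 TPM, the widest spread of this entry in CB-6644. HSP90AA1 and HSP90AB1 are close paralogs, and how reads common to both were split between them is not known here.

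Hsp60, the subunit of the mitochondrial chamber, held 1065, 1069, 1009 and 989 TPM in DMSO and 639, 642, 624.6 and 621 TPM in CB-6644 in A-375, and fell by 0.71. Its falls in T3M-4, RH30, AsPC-1, H1048 and T84 were 0.44, 0.40, 0.37, 0.36 and 0.30. Hsp10, its lid, moved less. It fell by 0.28 in H1048, 0.16 in RH30 and 0.054 in A-375, where the call was lost on leaving out any 1 of 6 of 8 libraries (-0.053 to -0.047), and its values elsewhere were -0.084, -0.22 and -0.069 in AsPC-1, T3M-4 and T84. The difference in size between the chamber subunit and its lid in A-375 was not tested.

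Hsp110 and Hsp40, the exchange factor and the J-domain partner of Hsp70, went the other way in most lines. Hsp110 held 165, 180.4, 180.4 and 185 TPM in DMSO and 283, 274, 273 and 259 TPM in CB-6644 in T84, a log2 change of 0.61 ± 0.044 (adjusted p = 6.81e-09), and 196, 191, 197 and 197 against 284, 273, 288 and 286 TPM in RH30, where it rose by 0.53. It rose by 0.37 in AsPC-1 with EV and 0.35 in A-375, fell by 0.093 in H1048 and was -0.05 in T3M-4, where it did not pass. The H1048 call was lost on leaving out any 1 of CB-6644 replicates 1, 2 and 4 and DMSO replicates 3 and 4 (-0.09 to -0.075). T84 had the smallest fall of Hsp70 and the largest rise of Hsp110 among the 6 lines. Hsp40 rose by 0.25 in RH30, 0.20 in A-375, 0.20 in H1048, 0.16 in AsPC-1 and 0.14 in T84, but after median-of-ratios scaling of the libraries it passed only in RH30 (0.12) and its sign turned in AsPC-1 (-0.039) and T84 (-0.0024). HSF1 rose by 0.38 in AsPC-1, 0.36 in A-375 and 0.24 in H1048, with the AsPC-1 call lost on leaving out any 1 of A62T DMSO replicate 1, EV CB-6644 replicates 2 and 3 and dF109 DMSO replicate 1 (0.25 to 0.38), and was -0.10, -0.19 and 0.089 in RH30, T3M-4 and T84. After the same scaling Hsp110 did not pass in AsPC-1 (0.17), and HSF1 passed as higher in A-375 (0.19), as lower in RH30 (-0.24) and not in AsPC-1 (0.18) or H1048 (0.058). The median change of all genes was 0.037 to 0.19 by line and near 0 after that scaling. Under it the members pass as 5 higher and 30 lower, and the falls of Hsp70, HSP90AB1 and Hsp60 pass in all 6 lines. The shares of all genes higher and lower were taken on unscaled values only. They are no background for counts under scaling, here or below.

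**Figure D2:**
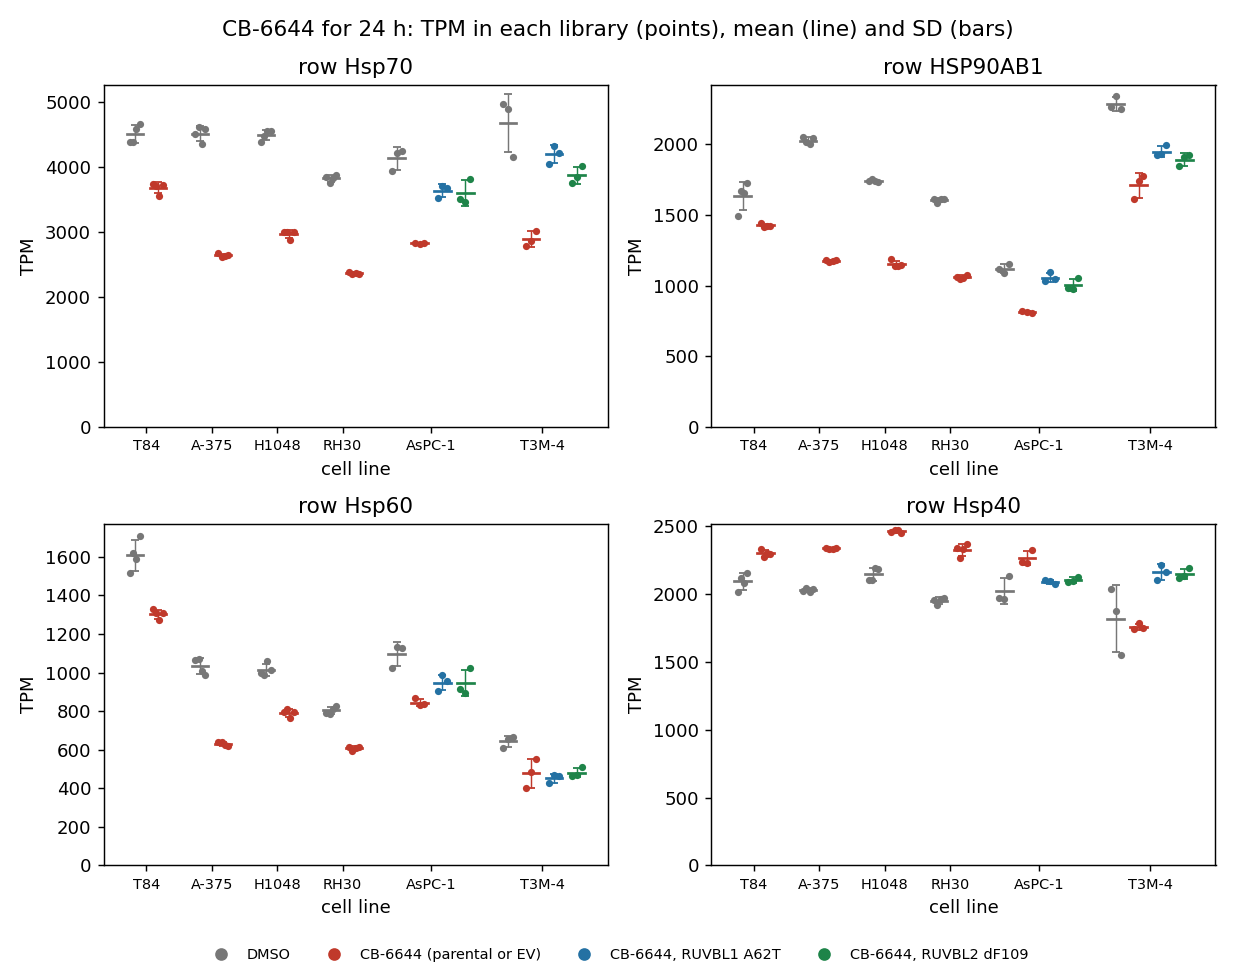
TPM of Hsp70, HSP90AB1, Hsp60 and Hsp40 in each library (points) with the mean (line) and SD (bars), by line and by DMSO, CB-6644 without a variant, or CB-6644 with A62T or dF109. Hsp70 lies lower in CB-6644 than in DMSO in all 6 lines, and the variant libraries of AsPC-1 and T3M-4 lie above the EV libraries, while Hsp40 rises in 5 lines, of which only RH30 still passes after scaling by the median of ratios, with the sign turned in AsPC-1 and T84.

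Whether the response to CB-6644 differed between T84, A-375, H1048 and RH30, which lie in 1 table, was tested with a moderated F test of the line by treatment terms. All 8 members passed, with the highest adjusted p at 0.00329 for Hsp40, as did 86.2% of all genes tested, so the members did not stand out by passing. The F value was highest for HSP90AB1 (94), Hsp70 (91.4) and Hsp110 (83.2), and lowest for Hsp40 (6.08). The changes that differed ranged from -0.78 in A-375 to -0.20 in T84 for HSP90AB1 and from -0.093 in H1048 to 0.61 in T84 for Hsp110.

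AsPC-1 and T3M-4 cells with RUVBL1 A62T or RUVBL2 dF109 were compared with the same DMSO libraries, which asks what CB-6644 did in cells that carried a variant. Hsp60 fell in all 4 settings, and Hsp70, HSP90AB1 and HSP90AA1 in some of them. Of 32 tests, 2 passed as higher and 14 as lower, against 30.4% and 3.53% of all genes tested. Both higher calls were Hsp40 in T3M-4 (0.26 with A62T and 0.25 with dF109), whose sign turned after scaling by the median of ratios (-0.094 and -0.064). In AsPC-1, 3 of 8 passed with A62T (12.7% of all genes tested) and 4 with dF109 (33.4%), and in T3M-4, 4 passed with A62T (50%) and 5 with dF109 (37.6%). Hsp60 fell by 0.21 and 0.21 in AsPC-1 and by 0.51 and 0.42 in T3M-4 with A62T and dF109. Hsp10 fell by 0.50 and 0.32 in T3M-4, and in AsPC-1 was -0.19 and -0.09. Of these 16 calls, 2 held in every alternative, and 5 with each library left out in turn. The count was 9 without AsPC-1 dF109 CB-6644 replicate 1.

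Next, the 6 variant libraries in CB-6644 were set against the 3 EV libraries in CB-6644 of the same line. This contrast does not subtract the DMSO level of each vector, so a difference in the response to CB-6644 was not tested. Hsp70 was higher with a variant in both lines. In AsPC-1 it held 3932, 4217 and 4244 TPM in DMSO, 2828, 2814 and 2831 TPM with EV in CB-6644, 3524, 3704 and 3676 TPM with A62T and 3514, 3457 and 3819.98 TPM with dF109, a log2 difference of 0.36 ± 0.044 (adjusted p = 3.22e-05) from EV. In T3M-4 it held 4969, 4899.6 and 4161 TPM in DMSO, 2788, 2865 and 3018 TPM with EV, 4052, 4319.5 and 4216 TPM with A62T and 3759, 3841 and 4016 TPM with dF109, a difference of 0.48 ± 0.068 (adjusted p = 0.00046). Every variant library lay above every EV library and most lay below the DMSO libraries, so the level with a variant stood between DMSO and EV. The DMSO values above are those of A62T, dF109 and EV, in that order. In T3M-4 the same DMSO libraries held 103, 82.1 and 65.8 TPM of HSF1 and 2038, 1873 and 1549 TPM of Hsp40. Before the drug EV was thus the lowest for Hsp70, HSF1 and Hsp40 in T3M-4, and the highest for Hsp70 in AsPC-1.

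Over both lines 7 of 16 tests passed as higher with a variant and 2 as lower, against 34% and 20.4% of all genes tested. In AsPC-1, where 5 of 8 passed (55% of all genes tested), HSP90AB1 was higher by 0.34 and Hsp60 by 0.16, while Hsp110 was lower by 0.38 and Hsp40 by 0.11. In T3M-4, where 4 passed (53.9%), HSF1 was higher by 0.51, Hsp40 by 0.29 and HSP90AB1 by 0.17. The median of all genes differed by 0.25 there, and with libraries scaled by the median of ratios Hsp70 (0.20), HSF1 (0.24) and Hsp40 (0.014) no longer passed in T3M-4 and HSP90AB1 turned to -0.11, whereas in AsPC-1 Hsp70 (0.42) and HSP90AB1 (0.40) still did. Under that scaling 3 tests pass as higher and 2 as lower, with no share of all genes by direction to set beside them. In AsPC-1 the Hsp60 call was lost on leaving out any 1 of EV CB-6644 replicates 2 and 3 (0.15 to 0.16) and that of Hsp40 on leaving out any 1 of A62T CB-6644 replicate 3, EV CB-6644 replicates 1, 2 and 3 and dF109 CB-6644 replicate 1 (-0.12 to -0.09), and in T3M-4 that of HSF1 on leaving out EV CB-6644 replicate 3 (0.28) and that of HSP90AB1 on leaving out EV CB-6644 replicate 1 (0.13).

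Knockout of RUVBL1 or RUVBL2 was compared with sgRosa in AsPC-1, BxPC-3, CFPAC-1 and T3M-4, 9 comparisons with 2 to 4 knockout libraries each, in which targets of 1 experiment share their sgRosa libraries. HSP90AB1 and Hsp70 fell in 6 of 9, Hsp60 and Hsp10 in 4, with the largest falls of these in T3M-4, and Hsp40 rose in 5, most in AsPC-1. Of 72 tests, 13 passed as higher and 25 as lower, against 23% and 15.7% of all genes tested, and the median change was -0.076 for members and 0.025 for all genes. In T3M-4, 6 of 8 passed with sgRUVBL1 (60.5% of all genes tested) and 7 with sgRUVBL2 (54.5%). In AsPC-1, 7 passed with sgRUVBL1 in experiment 2 (55.8%), 7 with sgRUVBL1 in experiment 3 (51.9%) and 4 with sgRUVBL2 (43.2%). In CFPAC-1, 3 passed with sgRUVBL1 (43.8%) and 1 with sgRUVBL2 (12.1%). In BxPC-3, 3 passed with sgRUVBL1 (16%) and 0 with sgRUVBL2 (9.76%) by limma, where 1 had an unadjusted p under 0.05. The percentages are for adjusted p and are no background for counts at an unadjusted p, here or below.

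In T3M-4 the mitochondrial chaperonin moved most. Hsp60 held 707, 675, 574 and 649 TPM in sgRosa, 389, 393 and 403 TPM in sgRUVBL1 and 386, 402, 361 and 345 TPM in sgRUVBL2, log2 changes of -0.71 ± 0.069 and -0.80 ± 0.064 (adjusted p = 2.61e-07 and 2.77e-08). Every knockout library lay below every sgRosa library. Its lid Hsp10 fell by 0.51 and 0.52. HSP90AA1 held 1558, 1582, 1188 and 1401 TPM in sgRosa, 1088, 932 and 959 TPM in sgRUVBL1 and 1157, 1059, 711 and 775 TPM in sgRUVBL2, and fell by 0.52 and 0.65, while HSP90AB1 fell by 0.49 and 0.49. Both cytosolic HSP90 genes and both chaperonin genes fell with either target. Hsp70 fell by 0.25 and 0.26 and Hsp40 rose by 0.27 and 0.22, values that under scaling by the median of ratios were 0.0078 and 0.028 for Hsp40, both short of the threshold. Hsp110 was -0.15 with sgRUVBL1, which did not pass, and fell by 0.36 with sgRUVBL2, a call lost on leaving out any 1 of sgRUVBL2 replicates 3 and 4 and sgRosa replicates 1 and 2 (-0.32 to -0.26).

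AsPC-1 gave another pattern, with Hsp110, Hsp40 and HSF1 higher and HSP90AA1 divided between its 2 experiments. In experiment 3, Hsp110 held 127, 118, 132 and 119.5 TPM in sgRosa, 211, 177, 164 and 201 TPM in sgRUVBL1 and 168, 173, 179 and 174 TPM in sgRUVBL2, rises of 0.59 and 0.48 with no overlap between knockout and control libraries. In experiment 2, Hsp110 rose by 0.18 with sgRUVBL1, a call lost on leaving out any 1 of sgRUVBL1 replicates 2 and 4 and sgRosa replicates 1 and 2 (0.13 to 0.17). Hsp40 rose by 0.32 and 0.24 in experiment 3 and by 0.16 in experiment 2, and of these only sgRUVBL1 in experiment 3 still passed under scaling by the median of ratios (0.15). HSF1 rose by 0.41 with sgRUVBL1 in experiment 3, a call lost on leaving out any 1 of sgRUVBL1 replicates 1 and 2 and sgRosa replicates 3 and 4 (0.33 to 0.40), and by 0.33 in experiment 2.

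HSP90AB1 fell in AsPC-1 by 0.33 in experiment 2 and by 0.18 with sgRUVBL1 in experiment 3, and was -0.056 with sgRUVBL2. Hsp70 fell by 0.25, 0.17 and 0.11 in the same order, the last lost on leaving out any 1 of sgRUVBL2 replicates 1, 3 and 4 and sgRosa replicates 1, 2 and 4 (-0.11 to -0.096). HSP90AA1 fell by 0.19 in experiment 2 but rose by 0.16 and 0.16 in experiment 3, where its scaled values were -0.0028 and 0.01 and did not pass. Hsp60 fell by 0.28 in experiment 2 and was -0.068 and -0.087 in experiment 3, and Hsp10 rose by 0.28 with sgRUVBL1 in experiment 3, where under scaling Hsp10 (0.11) and HSF1 (0.25) did not pass. The same target in the same line gave opposite signs for HSP90AA1 in separate experiments, and that difference was not tested.

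In BxPC-3, Hsp10 fell with sgRUVBL1 by 0.34, Hsp60 by 0.19 and HSP90AB1 by 0.18, the Hsp60 call being lost on leaving out any 1 of 14 of 19 libraries (-0.21 to -0.13). After scaling by the median of ratios Hsp10 alone passed there, with Hsp60 at -0.20 and HSP90AB1 at -0.19. In CFPAC-1, HSF1 fell with sgRUVBL1 by 0.42, a call lost on leaving out any 1 of sgRUVBL1 replicates 1 and 4 and sgRosa replicates 2 and 3 (-0.41 to -0.31), HSP90AB1 by 0.18, a call lost on leaving out any 1 of sgRUVBL1 replicate 1 and sgRosa replicate 2 (-0.15 to -0.11), and Hsp70 by 0.18. After scaling by the median of ratios HSP90AB1, Hsp70 and HSF1 stood at 0.037, 0.037 and -0.22 there and did not pass, and Hsp40 stood at 0.20, which passed, and the median of all genes in that comparison was -0.20. Hsp10 fell by 0.33 with sgRUVBL2 (-0.23 after scaling, which did not pass), a call lost on leaving out any 1 of 9 of 17 libraries (-0.38 to -0.27). With the libraries labelled sgCDK1 and sgRPA3 left out of the CFPAC-1 fit, 3 of the 4 calls passed. Over all 9 comparisons the split under scaling was 6 higher and 23 lower, without a scaled share of all genes by direction. Of the 38 calls, 21 held in every alternative and with each library left out.

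The 2 partners of the ring were also set against each other, sgRUVBL2 against sgRUVBL1, in 4 lines. Of 32 tests 1 passed, against 0.917% of all genes tested: Hsp10 in AsPC-1, which held 634, 576, 630.2 and 583 TPM in sgRUVBL1 and 488, 533, 486 and 467 TPM in sgRUVBL2, a difference of -0.30 ± 0.059 (adjusted p = 0.0119), which did not pass under scaling by the median of ratios or in a fit of these groups alone. The differences of the other members ran from -0.32 to 0.16. At an unadjusted p under 0.05 by limma stood 6 of the 32, a count given without the share of all genes.

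Knockout of KLF5 was compared with sgRosa in 8 experiments over 5 pancreatic lines, against the same sgRosa libraries as the other targets of an experiment. Members that passed were higher, among them HSP90AB1 in 5 experiments, HSP90AA1 in 4 and Hsp70, Hsp60 and Hsp10 in 3 each. Of 64 tests, 22 passed as higher and 0 as lower by limma, against 11.8% and 8.81% of all genes tested. At an unadjusted p under 0.05 by limma stood 28 as higher and 0 as lower. Those shares of all genes are for adjusted p and do not apply to the unadjusted counts. The median change was 0.15 for members and 0.021 for all genes. The largest changes were in BxPC-3 experiment 2, where 7 of 8 passed (34.6% of all genes tested). In AsPC-1, 5 passed in experiment 3 (27.8%) and 2 in experiment 1 (25.9%), 4 in CFPAC-1 (16.2%), 3 passed in T3M-4 experiment 2 (34.6%) and 1 in BxPC-3 experiment 1 (16.2%). In T3M-4 experiment 1 (5.72%) and SUIT-2 (3.94%) 0 passed by limma, with 2 and 1 at an unadjusted p under 0.05.

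In BxPC-3 experiment 2, Hsp110, the exchange factor, held 162, 137, 110.2 and 106 TPM in sgRosa and 259, 241, 244 and 227 TPM in sgKLF5, a log2 change of 0.93 ± 0.12 (adjusted p = 1.69e-05). The inducible HSP90AA1 held 1077, 961, 907 and 783 TPM in sgRosa and 1775, 1681, 1571 and 1329.9 TPM in sgKLF5, a change of 0.77 ± 0.095 (adjusted p = 7.02e-06). Knockout and control libraries of both genes did not overlap. Hsp60 rose by 0.55, Hsp10 by 0.48, Hsp70 by 0.44, Hsp40 by 0.35 and HSP90AB1 by 0.34, while HSF1 was -0.028. These 7 calls held in every alternative and with each library left out, but in experiment 1 of the same line, with 2 sgRosa libraries, only Hsp10 passed at 0.32, a call lost on leaving out either sgRosa library (0.31 to 0.33), and HSP90AA1 was 0.21 and Hsp110 0.19.

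HSP90AA1 passed in 3 of the 5 lines. In AsPC-1 experiment 3 it held 637, 626, 668 and 641 TPM in sgRosa and 921, 794, 807 and 881 TPM in sgKLF5, a change of 0.40 ± 0.052 (adjusted p = 6.53e-06). It rose by 0.32 in CFPAC-1, a call lost on leaving out sgKLF5 replicate 2 (0.27), and by 0.26 in AsPC-1 experiment 1, a call lost on leaving out any 1 of 6 of 8 libraries (0.17 to 0.35). HSP90AB1 rose by 0.24 in AsPC-1 experiment 3, 0.25 in CFPAC-1, 0.16 in AsPC-1 experiment 1 and 0.13 in T3M-4 experiment 2. The mitochondrial pair rose in CFPAC-1, Hsp60 by 0.32 and Hsp10 by 0.37, and in AsPC-1 experiment 3 Hsp60 rose by 0.18, Hsp110 by 0.21 and Hsp70 by 0.13. In T3M-4 experiment 2, Hsp40 rose by 0.16 and Hsp70 by 0.14, and neither these nor HSP90AB1 in that experiment nor the calls of AsPC-1 experiment 1 passed after scaling by the median of ratios, and neither did Hsp60 (0.17) and Hsp70 (0.11) in AsPC-1 experiment 3 or Hsp10 in BxPC-3 experiment 1 (0.35). The T3M-4 calls were lost on leaving out any 1 of 15 of 19 libraries (0.11 to 0.15) for Hsp70, on leaving out any 1 of 9 of 19 libraries (0.09 to 0.14) for HSP90AB1 and on leaving out any 1 of sgKLF5 replicates 2 and 3 and sgRosa replicates 3 and 4 (0.12 to 0.16) for Hsp40. HSP90AB1 was lost in AsPC-1 experiment 1 on leaving out any 1 of 5 of 8 libraries (0.11 to 0.17) and in CFPAC-1 on leaving out any 1 of sgKLF5 replicates 1 and 2 and sgRosa replicates 1 and 3 (0.21 to 0.24), and in AsPC-1 experiment 3 Hsp110 was lost on leaving out any 1 of sgKLF5 replicates 1 and 3 and sgRosa replicates 2 and 4 (0.19 to 0.20) and Hsp70 on leaving out sgKLF5 replicate 4 (0.12).

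The experiments in which no member passed include the libraries that stood apart. In T3M-4 experiment 1, sgKLF5 replicate 2 held 3292 TPM of Hsp70 against 5193 to 5470.2 TPM in the other 3, and without it 2 members passed, Hsp10 at 0.28 and HSF1 at 0.61, while Hsp70 moved from -0.15 to 0.021, Hsp60 from -0.52 to -0.19 and Hsp110 from -0.60 to -0.29. In SUIT-2, sgRosa replicate 1 held 2096 TPM of Hsp70 against 3318 to 3380.3 TPM in the others. Without it the Hsp70 value went from 0.32 to 0.15, and HSP90AA1 stood at -0.21, or at 0.66 without sgKLF5 replicate 4, with 0 members past the threshold by limma either way. Of the 22 KLF5 calls, 10 held in every alternative and with each library left out. Under scaling by the median of ratios 15 tests passed as higher, without a scaled share of all genes by direction. With the replicate number as a block, 21 passed as higher and 3 as lower, the latter HSP90AA1, Hsp110 and Hsp60 in T3M-4 experiment 1.

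Knockouts of CDK1, the kinase of mitotic entry, and RPA3, a subunit of the single-strand DNA binding complex of replication, served as further comparisons in 10 settings, with 2 libraries each. The largest changes of any member in the series were here, falls of HSP90AA1 and Hsp110 with sgRPA3 in BxPC-3 and T3M-4. Of 80 tests, 5 passed as higher and 16 as lower, against 6.46% and 3.37% of all genes tested. With sgRPA3, 6 of 8 passed in BxPC-3 experiment 2 (20.8% of all genes tested), 5 in T3M-4 experiment 2 (24.6%) and 3 in CFPAC-1 (11.6%). By limma 0 passed in AsPC-1 (0.654%), BxPC-3 experiment 1 (0.307%) and T3M-4 experiment 1 (0%), with 3, 3 and 0 at an unadjusted p under 0.05. With sgCDK1, 5 passed in AsPC-1 (16.7%), 2 in T3M-4 (16.8%), 0 in BxPC-3 (5.82%) and 0 in CFPAC-1 (0%), the last 2 with 1 and 4 at an unadjusted p under 0.05. The unadjusted counts are given without the share of all genes.

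In BxPC-3 experiment 2, HSP90AA1 held 425 and 417 TPM in the sgRPA3 libraries against 1077, 961, 907 and 783 TPM in sgRosa, a log2 change of -1.14 ± 0.12 (adjusted p = 2.33e-05). Hsp110 held 62.1 and 56.7 against 162, 137, 110.2 and 106 TPM, and fell by 1.08. In T3M-4 experiment 2, HSP90AA1 held 685 and 689 against 1558, 1582, 1188 and 1401 TPM and fell by 1.05. Both sgRPA3 libraries of these lines lay below all 4 sgRosa libraries, and the sgRosa libraries themselves spread widely. Hsp110 in T3M-4 held 87.6 and 82.5 against 201, 205, 141 and 137 TPM and fell by 0.97. Hsp10 fell by 0.79 in BxPC-3 and was -0.24 in T3M-4, and Hsp60 fell by 0.69 and 0.52. HSP90AB1, the constitutive gene, moved less than HSP90AA1, by falls of 0.30 and 0.35, and Hsp70 fell by 0.30 and 0.27, the latter lost on leaving out sgRPA3 replicate 2 (-0.20). In experiment 1 of the same lines HSP90AA1 was -0.16 and 0.087 with sgRPA3 and did not pass. The RPA3 transcript stood at 63.0% of sgRosa in BxPC-3 and 37.1% in T3M-4 there, against 70.1% and 78.4% in experiment 2. The larger falls of HSP90AA1 were thus not in the experiments with the lower RPA3 level.

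In AsPC-1, sgCDK1 went with higher values. HSP90AA1 held 1021 and 954 TPM in sgCDK1 against 637, 626, 668 and 641 TPM in sgRosa, a change of 0.62 ± 0.063 (adjusted p = 3.85e-06), and both libraries lay above all sgRosa libraries. Hsp110 rose by 0.40, lost on leaving out sgCDK1 replicate 1 (0.36), Hsp60 by 0.33, HSP90AB1 by 0.19, lost on leaving out any 1 of sgCDK1 replicates 1 and 2 (0.19 to 0.20), and Hsp70 by 0.15, lost on leaving out any 1 of 7 of 20 libraries (0.11 to 0.18). After scaling by the median of ratios Hsp60 (0.30), HSP90AB1 (0.16) and Hsp70 (0.11) did not pass in AsPC-1. In T3M-4, Hsp60 fell by 0.45 and HSP90AB1 by 0.24 with sgCDK1, the latter lost on leaving out any 1 of sgCDK1 replicates 1 and 2 (-0.24). In CFPAC-1, the libraries labelled sgRPA3, those with the low CDK1 level, had Hsp60 lower by 0.37, Hsp10 by 0.34 and HSP90AA1 by 0.31, and each of these calls was lost without either of the 2 libraries. The RPA3 and CDK1 groups have 2 libraries each, and the variance behind their tests comes mostly from the other groups of the experiment. Under scaling by the median of ratios the split was 2 higher and 19 lower, without a scaled share of all genes by direction.

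**Figure D3:**
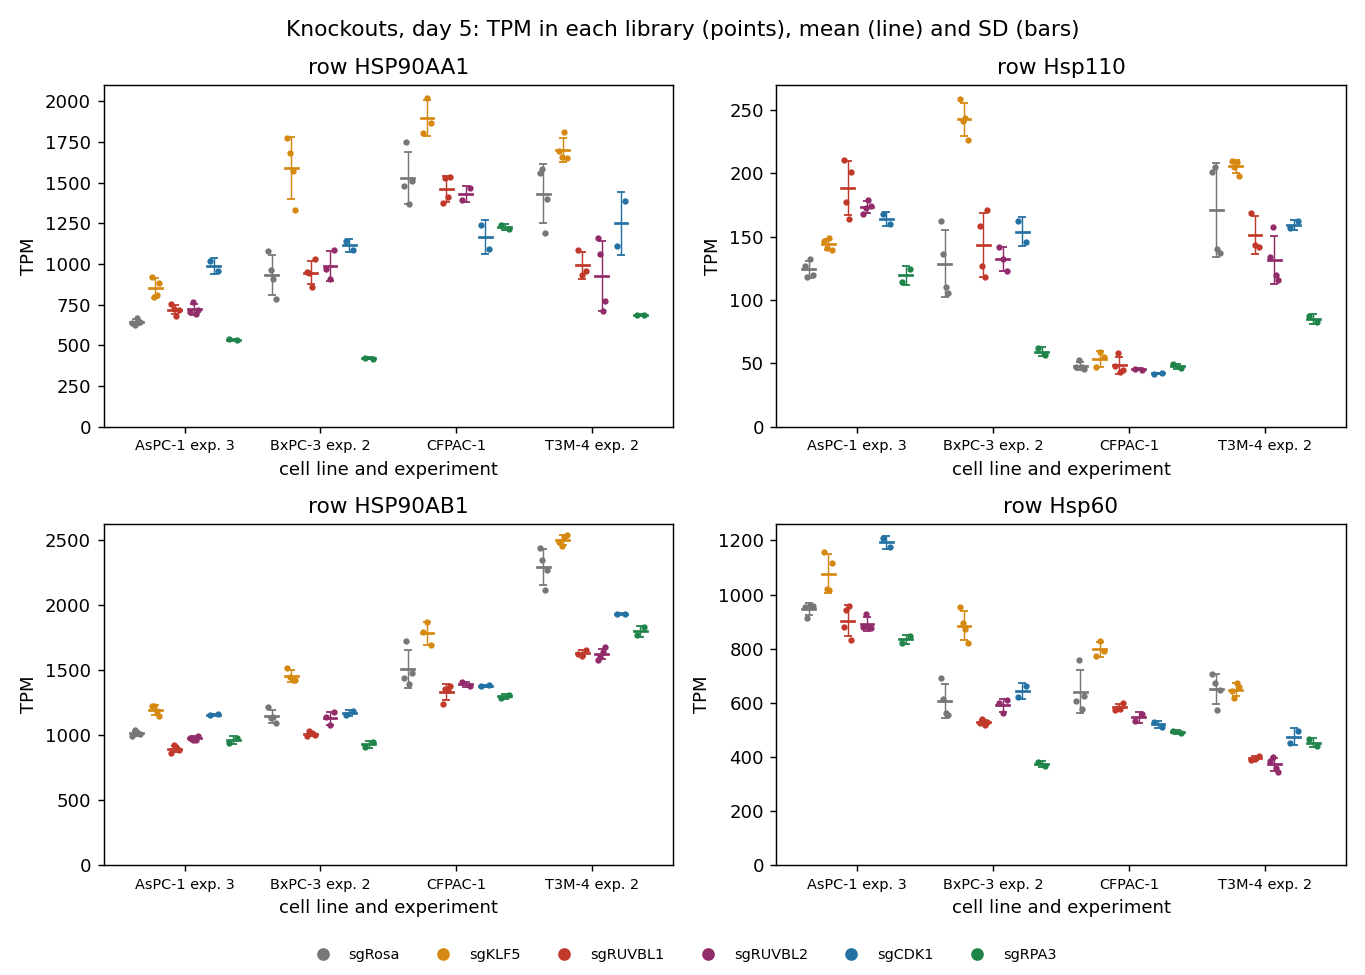
TPM of HSP90AA1, Hsp110, HSP90AB1 and Hsp60 in each library (points) with the mean (line) and SD (bars), by line and target. HSP90AA1 and Hsp110 are highest with sgKLF5 and lowest with sgRPA3 in BxPC-3, and HSP90AB1 and Hsp60 are low with sgRUVBL1 and sgRUVBL2 in T3M-4.

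CHD4 and SERPINB5 knockouts were measured in AsPC-1 alone, CHD4 being the ATPase of the NuRD remodelling complex and SERPINB5 a serpin of epithelial cells. Over both, 2 of 16 tests passed as higher and 2 as lower, against 11.8% and 13.5% of all genes tested, shares close to those of the members. With sgCHD4, 4 of 8 passed (50% of all genes tested). HSP90AB1 held 1076, 1099, 1032 and 1004 TPM in sgRosa and 1279, 1170.04, 1313 and 1237 TPM in sgCHD4, and rose by 0.25, the only one of the 4 calls that held in every alternative. HSF1 rose by 0.12, Hsp10 fell by 0.10 and Hsp70 by 0.091, each lost on leaving out any 1 of 5 to 7 of 8 libraries. Under scaling by the median of ratios 4 tests passed as higher and 0 as lower by limma, without a scaled share of all genes by direction. With sgSERPINB5, 0 of 8 passed by limma (0.0343% of all genes tested), and 0 had an unadjusted p under 0.05.

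**Figure D4:**
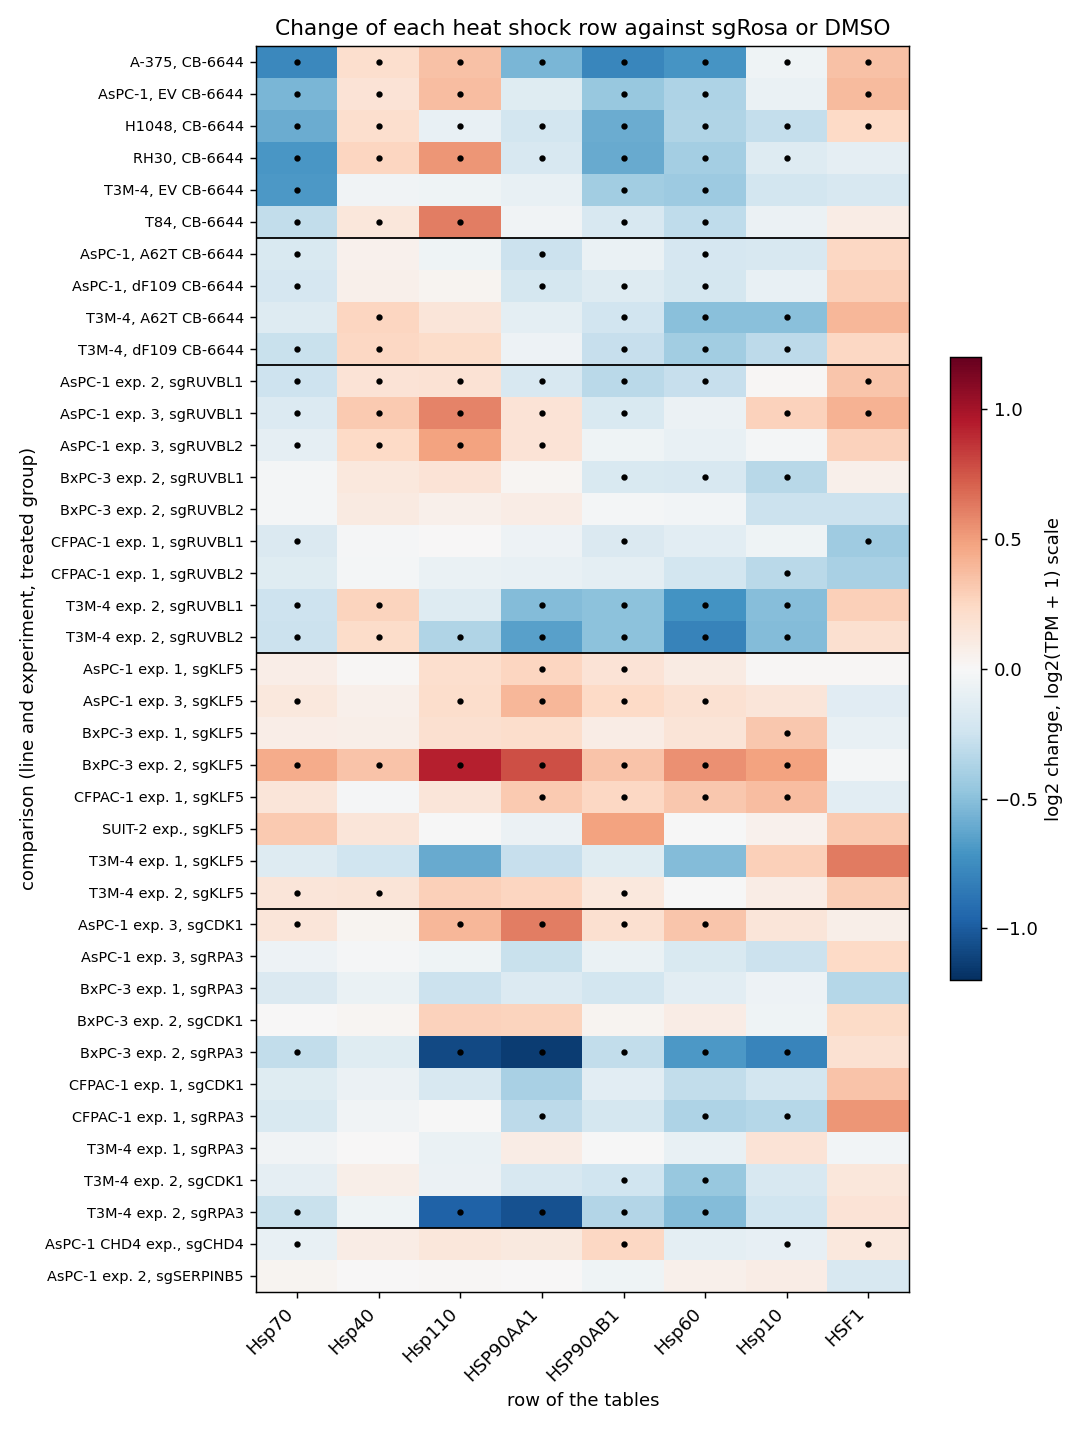
Log2 change, on the log2(TPM + 1) scale, of the 8 entries (columns) in the 39 comparisons with sgRosa or DMSO (1 line of cells each), red for higher and blue for lower, with a dot where the adjusted p is under 0.05. The CB-6644 block is blue for Hsp70, HSP90AB1 and Hsp60, the sgKLF5 block has 22 dots, each on a higher value, and the deepest blue is HSP90AA1 with sgRPA3 in BxPC-3 (-1.14).

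Genes that work with these chaperones were followed through lists of genes chosen by function. Their values come from the main fit alone and were not checked under scaling or the other alternatives. Co-chaperones of HSP90, which load clients onto it or pace its ATP cycle, had entries for 20 of 20 genes. With CB-6644 in cells without a variant, 34 of 120 tests of these 20 passed as higher and 52 as lower, against 44.7% and 22.9% of all genes tested. STIP1, which bridges HSP70 and HSP90, was lower in 6 of 6 lines (-0.75 to -0.27) and PTGES3, the p23 co-chaperone, in 6 of 6 (-0.87 to -0.21). With RUVBL1 or RUVBL2 knockout, 43 of 180 tests passed as higher and 37 as lower, against 23% and 15.7% of all genes tested. FKBP4, an immunophilin of steroid receptor complexes, was lower in 7 of 9 comparisons (-0.73 to -0.12), and UNC45A, a myosin chaperone, higher in 7 of 9 (-0.012 to 0.43). With KLF5 knockout 24 of 160 passed as higher and 4 as lower (all genes 11.8% and 8.81%), TOMM34 being higher in 6 of 8 (-0.17 to 0.67), and with CDK1 or RPA3 knockout 6 of 200 as higher and 24 as lower (all genes 6.46% and 3.37%). The median change of the list was -0.09 with CB-6644, -0.035 with RUVBL1 or RUVBL2 knockout, 0.087 with KLF5 knockout and -0.047 with CDK1 or RPA3 knockout, against 0.14, 0.025, 0.021 and 0.038 for all genes tested.

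Co-chaperones of HSP70, which exchange its nucleotide or direct its substrates, had entries for 11 of 12 genes. With CB-6644 33 of 66 tests passed as higher and 13 as lower, and with RUVBL1 or RUVBL2 knockout 30 of 99 and 15. These counts lie near the all-gene shares of 44.7% and 22.9% and of 23% and 15.7%. BAG2, which restrains the ligase CHIP, was lower in 6 of 6 lines with CB-6644 (-1.12 to -0.57) and in 8 of 9 knockout comparisons (-1.05 to -0.32). BAG1, an exchange factor that links HSP70 to the proteasome, was higher in 4 of 6 with CB-6644 (0.019 to 0.94) and in 8 of 9 with the knockouts (0.39 to 0.93). BAG3, the exchange factor of aggregate clearance, was higher in 5 of 6 lines with CB-6644 (-0.11 to 0.96). BAG2 with KLF5 knockout was higher in 3 of 8 (-0.59 to 0.98) and with CDK1 or RPA3 knockout lower in 4 of 10 (-0.95 to 0.17). With KLF5 knockout the list gave 12 of 88 higher and 4 lower (all genes 11.8% and 8.81%), and with CDK1 or RPA3 knockout 6 of 110 and 8 (all genes 6.46% and 3.37%). Its median changes in the same 4 settings were 0.12, 0.11, -0.034 and 0.054. The CB-6644 values of BAG1 were singled out after they were seen.

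Of 33 other heat shock proteins 4 have entries. With CB-6644 9 of 24 tests passed as higher and 8 as lower (all genes 44.7% and 22.9%), with TRAP1, the mitochondrial HSP90, lower in 5 of 6 lines (-0.41 to -0.16) and HYOU1, an exchange factor of the endoplasmic reticulum, higher in 5 of 6 (0.12 to 0.47). With RUVBL1 or RUVBL2 knockout 2 of 36 passed as higher and 13 as lower (all genes 23% and 15.7%), TRAP1 accounting for 7 of 9 lower (-0.62 to -0.11). Of 9 small heat shock proteins 2 have entries. CRYAB, the alpha B-crystallin, passed the filter in 4 of 8 KLF5 comparisons. The filter takes the mean of all fitted libraries, so a low gene can pass through the group where it is high. With KLF5 knockout CRYAB was called higher in 3 of these 4 (0.44 to 2.79, all genes 11.8%). It was lower in 2 of 3 with CB-6644 (-0.57 to 0.43, all genes 22.9%) and in 1 of 2 with RUVBL1 or RUVBL2 knockout (-0.85 to -0.40, all genes 15.7%). Heat shock factors and their regulators had entries for 6 of 6 genes and gave 14 of 30 higher and 3 lower with CB-6644 (all genes 44.7% and 22.9%), where HSBP1, a binding partner of HSF1, was higher in 6 of 6 lines (0.21 to 0.40), 9 of 45 and 4 with the RUVBL1 or RUVBL2 knockouts (all genes 23% and 15.7%), and 3 of 40 and 3 with KLF5 knockout (all genes 11.8% and 8.81%). Their median changes were 0.19, 0.07 and 0.029 in these settings. HYOU1, HSBP1 and the other listed genes were not refitted under scaling by the median of ratios. Under that scaling most rises of Hsp40 with CB-6644 did not pass.

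**Figure D5:**
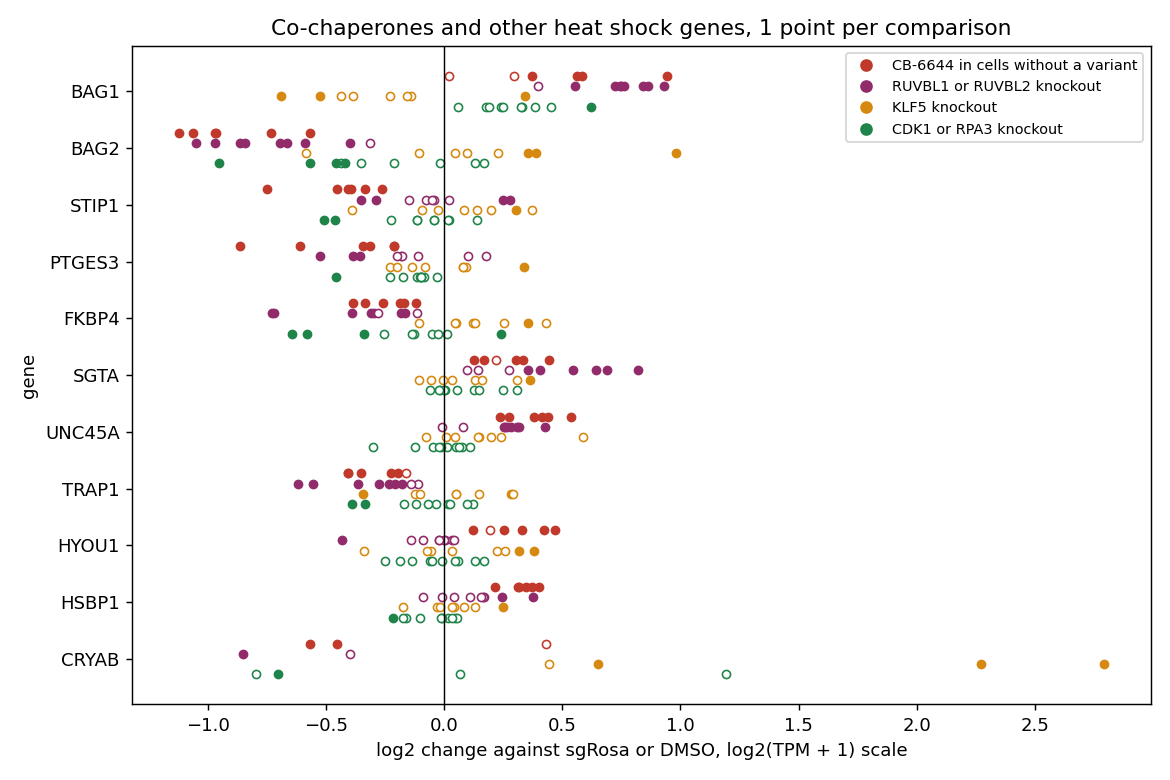
Log2 change of other genes, 1 point per comparison and 1 colour per kind of comparison, filled where the adjusted p is under 0.05. Values are those without scaling by the median of ratios. BAG2 lies at or below -0.57 in each of the 6 CB-6644 comparisons without a variant. CRYAB, which passed the filter in 4 of 8 KLF5 comparisons, reaches 2.79 with sgKLF5 in BxPC-3 experiment 1.

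Likeness between genes was measured over all 183 libraries as Pearson's r of log2(TPM + 1) less the mean of the controls of the same experiment, among 7375 genes that averaged at least 5 TPM in every experiment. The libraries share lines and controls, so r is a description and has no p. Most like Hsp70 were UTP18 (r = 0.895), RCC1 (r = 0.889) and ATIC (r = 0.878). For HSP90AA1 they were CBX3 (r = 0.837), DCAF13 (r = 0.833) and SSB (r = 0.802), and for HSP90AB1 ATIC (r = 0.912), RCC1 (r = 0.867) and NONO (r = 0.838). Most like Hsp60 were CCT6A (r = 0.913), NPM1 (r = 0.872) and CCT5 (r = 0.86), of which CCT6A and CCT5 encode subunits of TRiC, the cytosolic chaperonin. ATIC, an enzyme of purine synthesis, and RCC1, the exchange factor of Ran, stood among the 3 nearest genes of both Hsp70 and HSP90AB1. Among the members themselves, r was 0.912 between Hsp70 and HSP90AB1, 0.827 between HSP90AA1 and Hsp60, 0.744 between HSP90AA1 and Hsp110 and -0.0236 between Hsp40 and Hsp70.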

How the data were processed

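RNA-seq of 183 libraries was analysed as TPM, the share of a transcript in the library corrected for its length, in 8 tables of 19875 named entries. The authors pseudo-aligned single-end reads from poly-A libraries with kallisto to hg38 and deposited gene-level TPM made with tximport. TPM keeps no depth, so depth is unknown and no counting interval is given. The kit does not mark strand, so antisense and overlapping transcripts cannot be told apart, and reads shared by HSP90AA1 and HSP90AB1, or by Hsp10 and a read-through transcript of HSPE1, are divided by the estimate.

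Groups were taken from the labels. Values were put on the log2(TPM + 1) scale, which understates changes of low genes, entries with a mean under 1 TPM were left out, and each line and experiment was fitted as a whole with limma 3.58.1 (moderated test with trend, R 4.3.3). P-values were adjusted by Benjamini-Hochberg over all entries tested, with a threshold of 0.05, in 45 comparisons, 39 of them with sgRosa or DMSO. The fitting code was tested on simulated data. Tables were read with Python 3.11.15 and pandas 2.3.3 and plotted with matplotlib 3.10.9.

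The members were chosen by name. The gene lists (other heat shock proteins, small heat shock proteins, HSP90 co-chaperones, HSP70 co-chaperones, heat shock factors and regulators) were chosen by function. Both choices were made with earlier results of these data known, so they were not blind to the data. Named genes were the members, up to 3 genes of each list called most often in 1 direction in a kind of comparison, and the 3 genes most like a member over all libraries. Alternatives were a pseudocount of 0.1, no filter or one at 5 TPM, median-of-ratios scaling, fits restricted to the 2 groups of a comparison, the DMSO library of the same vector alone, the replicate number as a block and each library left out. They were read for the members and not for the genes of the lists. Columns other than the TPM values were not used. Of the genes that the naming rule selects, 1 is not reported here.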

Additional observations from a re-analysis of the deposited data

Results flagged for a closer look

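Of 240 sets tested, each 1 entry in 1 group of 4 to 10 libraries, 14 held a value far from the others. Chance gives about 1 in 20 sets, which is close to this share, so any value listed here can be one of chance. HSF1 was high in A-375 CB-6644 replicate 3 (94.3 TPM) and low in sgCHD4 replicate 2 (90.3 TPM), H1048 DMSO replicate 3 (61.9 TPM) and T3M-4 experiment 2 sgRosa replicate 4 (47.3 TPM). Hsp60 was low in sgCHD4 replicate 2 (843 TPM) and in AsPC-1 experiment 3 sgRosa replicate 2 (915 TPM), and high in AsPC-1 experiment 2 sgRUVBL1 replicate 2 (1033 TPM) and experiment 3 sgRUVBL2 replicate 2 (928 TPM). Hsp70 was low in H1048 CB-6644 replicate 3 (2881.5 TPM), T84 CB-6644 replicate 3 (3556 TPM), SUIT-2 sgRosa replicate 1 (2096 TPM) and T3M-4 experiment 1 sgKLF5 replicate 2 (3292 TPM). Hsp40 was low in SUIT-2 sgRosa replicate 1 (1081 TPM) and SUIT-2 sgKLF5 replicate 4 (1349.8 TPM). The 2 SUIT-2 libraries and the T3M-4 sgKLF5 library are also those farthest from their groups over all genes.

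The change with CB-6644 differed between T84, A-375, H1048 and RH30 for all 8 members by the moderated F test, as for 86.2% of all genes tested. The F values were 91.4 for Hsp70, 6.08 for Hsp40, 56.0 for HSP90AA1, 94.0 for HSP90AB1, 37.3 for Hsp60, 9.92 for Hsp10, 83.2 for Hsp110 and 15 for HSF1. Cells with a variant differed from EV cells in CB-6644 in AsPC-1 for Hsp70 (0.36), Hsp40 (-0.11), HSP90AB1 (0.34), Hsp60 (0.16) and Hsp110 (-0.38), and in T3M-4 for Hsp70 (0.48), Hsp40 (0.29), HSP90AB1 (0.17, and -0.11 after scaling by the median of ratios) and HSF1 (0.51).

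In 15 cases every library of a guide lay above its controls in 1 setting and below them in another. These differences were not tested, and the share of all genes with such cases was not computed. The sgCDK1 and sgRPA3 cases rest on groups of 2 libraries, so the count is not read as a result about the members. With sgCDK1, the log2 change in AsPC-1 exceeded that in CFPAC-1 by 1.00 for HSP90AA1, 0.59 for Hsp110, 0.29 for Hsp70 and 0.11 for Hsp40, and that in T3M-4 by 0.78 for Hsp60 and 0.43 for HSP90AB1. With sgKLF5, BxPC-3 experiment 2 exceeded T3M-4 experiment 1 by 1.53 for Hsp110, 1.07 for Hsp60 and 0.58 for Hsp40, and T3M-4 experiment 1 exceeded BxPC-3 experiment 1 by 0.71 for HSF1. With sgRPA3, CFPAC-1 exceeded BxPC-3 experiment 1 by 0.87 for HSF1, and T3M-4 experiment 1 exceeded BxPC-3 experiment 2 by 0.96 for Hsp10. AsPC-1 experiment 3 exceeded T3M-4 experiment 2 by 0.68 for HSP90AA1 and 0.79 for Hsp10 with sgRUVBL1, and by 0.81 for HSP90AA1 with sgRUVBL2. The CFPAC-1 values rest on the libraries whose CDK1 level contradicts their labels.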

How the results depend on the processing

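Of 360 values of the 8 members in 45 comparisons, 360 kept direction and side of the threshold with a filter at 5 TPM, 359 with a pseudocount of 0.1, 343 with no filter, 322 with only the groups compared and 254 with scaling by the median of ratios. The 16 calls in variant cells became 8 with the DMSO library of the same vector alone, 10 with no filter and 5 with only the groups compared. The 9 calls of variants against EV became 5 under scaling, and the 1 call of sgRUVBL2 against sgRUVBL1 became 0 under scaling and 0 with only the groups compared. Under scaling the sign turned for Hsp40 with CB-6644 in AsPC-1 EV (-0.039), T84 (-0.0024) and T3M-4 with A62T (-0.094) and dF109 (-0.064), for HSP90AB1 of T3M-4 variants against EV (-0.11), and with sgRUVBL1 for HSP90AA1 in AsPC-1 experiment 3 (-0.0028) and HSP90AB1, Hsp70 and Hsp40 in CFPAC-1 (0.037, 0.037 and 0.20). With the DMSO library of the same vector alone Hsp40 in T3M-4 EV turned to 0.18. The cause was not tested.

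Leaving out 1 library at a time gave 36 to 38 calls with CB-6644, 9 to 17 in variant cells, 7 to 10 for variants against EV, 35 to 39 with RUVBL1 or RUVBL2 knockout, 1 for sgRUVBL2 against sgRUVBL1, 19 to 24 with KLF5, 18 to 22 with CDK1 or RPA3, 1 to 6 with CHD4 or SERPINB5 and 8 for the F test. The count moved over 1.5 times without AsPC-1 dF109 CB-6644 replicate 1 (9), and for CHD4 or SERPINB5 without sgCHD4 replicate 1 or 4 or sgRosa replicate 1, 2 or 3. The libraries of CFPAC-1 labelled sgCDK1 and sgRPA3 were left out after seeing the data, which gave 3 calls in place of 4 with the RUVBL knockouts and 4 in place of 4 with KLF5.

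Replicate numbers were shared in 37 comparisons. Same-numbered libraries correlated at -0.46 to 0.46 in their deviations, and of 22 comparisons with at least 3 pairs, 1 had every pair over 0.1, so the numbers were not read as pairs. With the replicate block, the CHD4 or SERPINB5 calls went from 4 to 1, KLF5 knockout gave 24 in place of 22, 21 higher and 3 lower, and CDK1 or RPA3 knockout 20.

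TPM gives no depth, so no limit of detection can be stated. Groups of 2 libraries borrow their variance from the rest of an experiment. The identity of the Hsp70, Hsp40 and Hsp110 entries limits every statement on them, and the libraries of CFPAC-1 labelled sgCDK1 and sgRPA3 carry labels that the CDK1 level contradicts.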
